A study of Mus musculus with 8 samples.

Results

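Transcripts of 10 glutathione S-transferases were followed in bulk RNA from subcutaneous KPC tumours of mice, 6 of them cytosolic enzymes (Gstm1, Gstm2, Gsta4, Gstp1, Gsto1 and Gstt1), 3 membrane-bound (Mgst1, Mgst2 and Mgst3) and 1 of the kappa class (Gstk1). They were taken by gene symbol from the 57132 genes of the count table, and each symbol stood on 1 identifier. KPC names a mouse model of pancreatic cancer. Control mice (4 libraries) received PBS, phosphate-buffered saline. Treated mice (4 libraries) received Ce6@D4-EV and were then lit, and these libraries carry the submitters' label PDT, for photodynamic therapy. Under light the photosensitiser chlorin e6 (Ce6) turns oxygen into reactive forms, and D4-EV is the submitters' name for the vehicle that holds it. Mouse strain, age, sex, host immune status and the time from light to harvest are not stated in those labels, and no arm with light alone or the unlit carrier was analysed here. The family was selected on the read counts of PDT against PBS, because Gstm2 was among the few genes called in that contrast. The values of the 10 genes in this contrast are therefore a description and carry no p-value.

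Glutathione S-transferases join the tripeptide glutathione to electrophiles, among them the reactive aldehydes and epoxides left when lipids are oxidised, and the conjugates are then pumped out of the cell. The cytosolic enzymes work as dimers and fall into classes (mu, alpha, pi, omega and theta for the 6 here), while the membrane-bound ones belong to the MAPEG family of small integral membrane proteins and sit in the endoplasmic reticulum and outer mitochondrial membrane. The kappa enzyme is found in mitochondria and peroxisomes. Several of these genes are textbook targets of the oxidant-responsive transcription factor Nrf2, encoded by Nfe2l2, and pi-class enzyme is abundant in many carcinomas.

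The mu-class genes are close copies of each other, so the first question was whether reads of Gstm2 can be told from those of its neighbours. The first 120 coding bases of Gstm2 and Gstm1 are shown because this pair differed in its values below. Both are from GENCODE M21 transcripts, 5′ to 3′, with the 18 bases that differ in capitals.
Gstm2: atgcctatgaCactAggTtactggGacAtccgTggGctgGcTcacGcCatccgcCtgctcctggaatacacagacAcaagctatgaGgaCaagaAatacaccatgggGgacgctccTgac
Gstm1: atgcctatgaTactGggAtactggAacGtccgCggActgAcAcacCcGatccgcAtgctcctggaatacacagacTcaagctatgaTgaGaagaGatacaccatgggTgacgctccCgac
Over the whole coding sequence of 657 bases with the stop codon, Gstm2 was 86.0% identical to Gstm1, 86.02% to Gstm6, 85.3% to Gstm7 and 85.1% to Gstm3. The differences are spread out, and of the 1680 distinct 50-base words in Gstm2 transcripts only 0.65% were also found in another transferase gene. The share was 15.9% for Gstm1, mostly with the pseudogene Gstm2-ps1, and 33.7% for Gstp1, which shares 98.1% of its coding bases with Gstp2. It was 0 for the other 7 genes. How reads with several matches were counted is not given, so the values of Gstp1 and, less so, Gstm1 are uncertain.

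Summed gene counts ran from 35742024 to 48804713 reads per library, and the 10 genes together held 0.0878% to 0.159% of them. All 10 passed the filter on low counts, with 16 to 27216 reads per gene and library. The labels call the tissue sorted and name no gate. Markers of ductal epithelium were abundant (3119 to 7313 counts per 1000000 reads, CPM, summed over 8 genes), and so were those of fibroblasts (7128 to 14740 CPM over 10 genes) and macrophages (2120 to 6702 CPM over 12 genes), so the libraries hold mixed tissue. In such samples a change in the number of cells of a type and a change in RNA per cell cannot be told apart. Whether each library is from its own mouse is not stated, so each standard error or p-value covers only how these samples vary, which may be technical.

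Gstm2 (ENSMUSG00000040562), a mu-class enzyme, was the member that differed most clearly between the groups. It stood at 35.5, 38.7, 43.8 and 45.4 CPM in PBS 1 to PBS 4 and at 79.9, 64.2, 78.1 and 75.7 CPM in PDT 1 to PDT 4. Every PDT library lay above every PBS library, and the lowest of them, PDT 2, was still above the highest control, PBS 4. Group means were 40.8 ± 4.57 and 74.5 ± 7.04 CPM (SD, n = 4), a 1.82-fold difference, or 0.87 ± 0.13 (SE) on the log2 scale in edgeR. It was the 1 of 10 members with an adjusted p under 0.05 in edgeR, where 0.235% of the 16588 tested genes were called, and this call is what led to the choice of the family. DESeq2 and limma-voom, run on the same counts, called the same 1 of 10 (6.36% and 1.01% of all genes they tested), which adds no evidence to the choice.

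**Figure D1:**
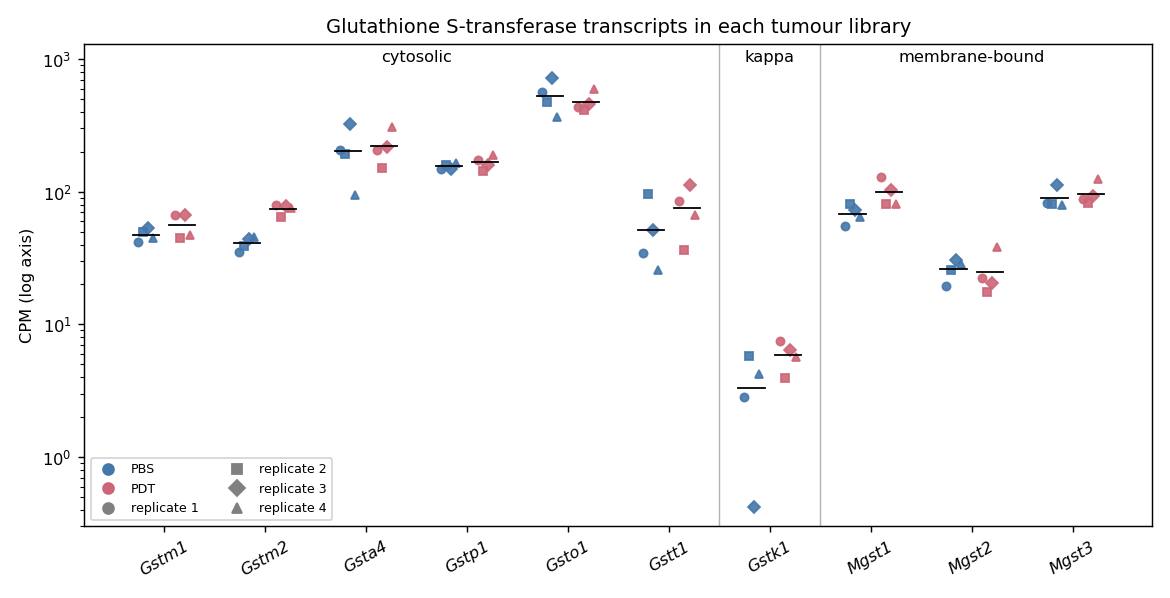
CPM of each of the 10 transferase genes in every library, on a log axis, with PBS in blue, PDT in red, a marker shape for each replicate number and a black bar at the group mean. Gstm2 spans 35.5 to 45.4 CPM in the controls and 64.2 to 79.9 CPM after PDT, whereas the groups of most other genes overlap.

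The Gstm2 difference kept its direction in every fit run, while its call did not hold in all of them. Every PDT library lay above every PBS library, so leaving 1 out could hardly turn the direction. The kept direction therefore adds no evidence. With 1 library left out the log2 difference ran from 0.81 (without PBS 1) to 0.94 (without PDT 2). The call held without PBS 4 (0.94) and without PDT 2, and was lost without PBS 1, PBS 2 (0.84), PBS 3 (0.90), PDT 1 (0.84), PDT 3 (0.85) or PDT 4 (0.87). Calls over all genes moved in the same way. The fits without PBS 4 and without PDT 2 called 122 of 17139 and 112 of 17063 genes, against 39 of 16588 with all libraries. Those without PBS 1, PBS 2, PBS 3, PDT 1, PDT 3 and PDT 4 called only 10, 4, 0, 0, 3 and 3 genes. Correcting for the GC and length of each gene's longest transcript, a choice made after the data were seen, lowered the difference to 0.68 ± 0.11 (SE). It also ended the call, in a fit that called 25 of 16274 genes. Summing all 8 rows of Gstm genes and pseudogenes gave 132 ± 11.6 CPM in the controls and 182 ± 25.1 CPM after PDT (SD, n = 4), without overlap, and a smaller log2 difference of 0.46 ± 0.13 (SE), no longer called.

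Gstm1 (ENSMUSG00000058135), the closest mu-class neighbour among the 10, differed less. It was at 41.6, 49.6, 53.6 and 45.0 CPM in PBS 1 to PBS 4 and at 67.4, 45.0, 66.5 and 47.3 CPM in PDT 1 to PDT 4, giving a log2 difference of 0.25 ± 0.16 (SE). PDT 1 and PDT 3 were above all controls, and PDT 2 and PDT 4 lay inside the control range. The difference was 0.17 without PDT 1 or without PDT 3, and 0.05 after the GC and length correction. The balance of the pair can be read within each library without any scaling. There were 0.853, 0.781, 0.817 and 1.007 reads of Gstm2 per read of Gstm1 in the controls, in the same order, and 1.19, 1.43, 1.18 and 1.601 in the treated libraries, again without overlap. The ratio describes the pair and is no measure of either gene alone. Gstm2 was chosen for its difference between these groups and the reads of Gstm1 are somewhat uncertain, so the ratio adds no evidence.

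Gstt1 (ENSMUSG00000001663), the theta-class enzyme that acts on small halogenated compounds, varied most among the cytosolic genes. It was at 34.5, 95.6, 51.7 and 25.8 CPM in PBS 1 to PBS 4 and at 84.6, 36.3, 113 and 67.3 CPM in PDT 1 to PDT 4. The groups overlapped widely, and the log2 difference was 0.54 ± 0.40 (SE), and it moved to 0.33 without PBS 4, 0.28 without PDT 3, 1.015 without PBS 2 and 0.31 after the GC and length correction. PBS 2 and PDT 3, its highest libraries of each group, also held the most adipocyte marker transcripts, 303 and 322 CPM summed over 7 genes against 80.5 to 114 CPM in the other 6 libraries. Among those 6 libraries Gstt1 still ran from 25.8 CPM in PBS 4 to 84.6 CPM in PDT 1, at adipocyte sums of 81.7 and 103.7 CPM. PBS 3, with the highest adipocyte sum of the 6, had Gstt1 at 51.7 CPM. The part of fat tissue in the level of Gstt1 was not tested.

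Gsta4 (ENSMUSG00000032348), the alpha-class enzyme known for conjugating hydroxynonenal, a lipid peroxidation aldehyde, did not separate the groups. Its levels were 205, 193, 325 and 94.5 CPM in PBS 1 to PBS 4 and 205, 151, 216 and 308 CPM in PDT 1 to PDT 4, with a log2 difference of 0.11 ± 0.31 (SE). Gsto1 (ENSMUSG00000025068), an omega-class enzyme with thioltransferase and dehydroascorbate reductase activity, gave the most reads of the 10 and was at 566, 477, 716 and 363 CPM in PBS and 439, 410, 458 and 590 CPM in PDT, giving a log2 difference of −0.16 ± 0.20 (SE), or −0.35 when corrected for GC and length. Both genes were highest in PBS 3 within the controls and in PDT 4 within the treated group, and lowest in PBS 4 and PDT 2. Ductal epithelial markers were also highest in PBS 3 (7313 CPM) and PDT 4 (6250 CPM), against 3119 to 4731 CPM elsewhere, and lowest of all in PDT 2. Among the controls they were lowest in PBS 1 (3569 CPM, against 3842 CPM in PBS 4), so the match did not extend to PBS 4. Whether tumour cell content sets these levels was not tested.

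Gstp1 (ENSMUSG00000060803), the pi-class enzyme, was the steadiest of the 10. It was at 148, 159, 148 and 165 CPM in PBS 1 to PBS 4 and at 174, 144, 160 and 188 CPM in PDT 1 to PDT 4, and the control values lay within those of the treated group. The log2 difference was 0.10 ± 0.12 (SE), turning to −0.13 ± 0.10 after the GC and length correction. Summing its 4 rows, Gstp2, Gstp3 and Gstp-ps included, gave a log2 difference of 0.03 ± 0.11.

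Among the membrane-bound enzymes Mgst1 (ENSMUSG00000008540), which has both transferase and peroxidase activity, showed higher levels in PDT. It was at 55.2, 81.06, 72.8 and 64.1 CPM in PBS 1 to PBS 4 and at 129.6, 81.2, 103 and 81.3 CPM in PDT 1 to PDT 4. The groups did not overlap, but PDT 2 and PDT 4 exceeded PBS 2 by less than 1 CPM. The log2 difference was 0.53 ± 0.18 (SE), with a range of 0.39 (without PDT 1) to 0.63 (without PDT 2) when 1 library was left out, and it was not called by edgeR, DESeq2 or limma-voom. Of the 10 genes 2, Gstm2 and Mgst1, had groups that did not overlap in either direction, as had 10.1% of all tested genes, and in both the PDT libraries were the higher. Gstm2 led to the choice of the family, so the count of 2 is a description and cannot be weighed against that share.

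Mgst2 (ENSMUSG00000074604), which can also make leukotriene C4, was at 19.6, 25.6, 30.6 and 28.6 CPM in PBS 1 to PBS 4 and at 22.4, 17.6, 20.7 and 38.5 CPM in PDT 1 to PDT 4. PDT 4 was above all other libraries and the other 3 treated libraries were low, giving a log2 difference of −0.07 ± 0.24 (SE), or −0.36 without PDT 4. Mgst3 (ENSMUSG00000026688) was at 82.6, 80.9, 113 and 79.5 CPM in PBS and 88.9, 81.8, 93.2 and 124 CPM in PDT, giving a log2 difference of 0.12 ± 0.17 (SE). Its high libraries were again PBS 3 and PDT 4.

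Gstk1 (ENSMUSG00000029864), the kappa enzyme, was the lowest of the 10, with 104, 242, 16 and 146 reads in PBS 1 to PBS 4 and 340, 154, 286 and 232 reads in PDT 1 to PDT 4. In scaled units these were 2.83, 5.77, 0.421 and 4.25 CPM in PBS and 7.54, 3.92, 6.38 and 5.67 CPM in PDT. The log2 difference of 0.82 ± 0.57 (SE) came with a wide error and overlapping groups, and it was 0.46 without PBS 3 and 1.24 without PBS 2. PBS 3 held far fewer Gstk1 reads than any other library.

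**Figure D2:**
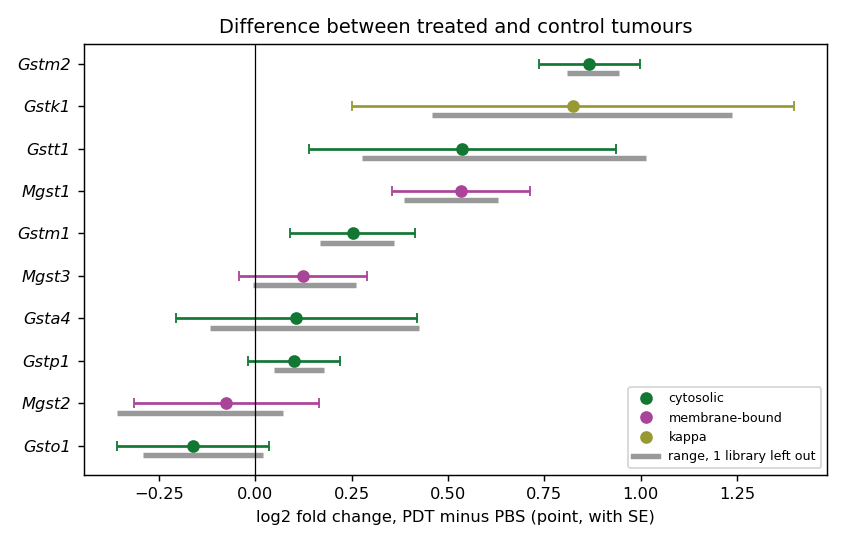
Log2 fold change of PDT minus PBS for each gene from edgeR, with its standard error, coloured by class, and a grey bar for the range over 8 fits that each leave out 1 library. Gstm2 has the largest value, 0.87, with a narrow range of 0.81 to 0.94, while Gstk1 at 0.82 and Gstt1 at 0.54 have wide ranges.

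The gap between cytosolic and membrane-bound enzymes differed between the groups by less than its spread among libraries. Of the 6 cytosolic genes 5 had a log2 fold change above 0, with a median of 0.18, and of the 3 membrane-bound genes 2 did, with a median of 0.12. Over all 10 genes 8 were above 0 with a median of 0.19, where 49.8% of all tested genes were above 0 and their median was −0.00217. Gsta4, Mgst2, Mgst3 and Gsto1, with log2 differences between −0.16 and 0.12, each changed sign when 1 library was left out, so the count of 8 rests partly on values near 0. That count also includes Gstm2, which led to the choice of the family.

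The mean log2 CPM of the cytosolic genes was 6.61, 6.88, 6.99 and 6.35 across the controls, in the same order, and 7.12, 6.63, 7.18 and 7.15 across the treated libraries. For the membrane-bound genes it was 5.48, 5.79, 5.98 and 5.72 in PBS and 5.99, 5.61, 5.87 and 6.19 in PDT. In both classes PDT 2 lay inside the control range. The difference between the classes, cytosolic minus membrane-bound, was 0.97 ± 0.23 in the controls and 1.10 ± 0.15 after PDT (SD, n = 4), a gap of 0.14 on the log2 scale that is smaller than either SD. It was 0.03 without PBS 4, 0.07 without PDT 3 and 0.27 with Gstk1 counted among the cytosolic genes. The cytosolic mean includes Gstm2, which led to the choice of the family, and the gap without Gstm2 was not computed.

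**Figure D3:**
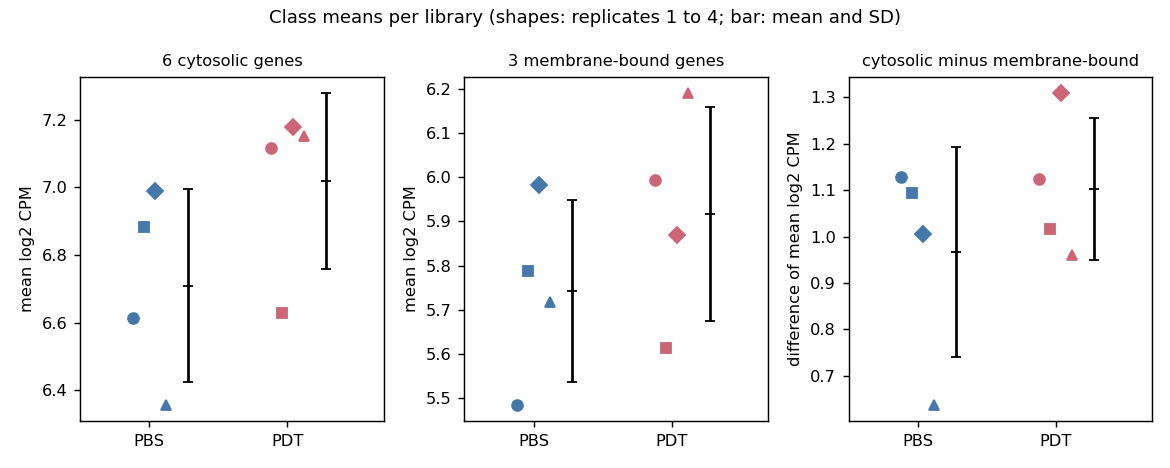
Mean log2 CPM per library of the 6 cytosolic genes (left), of the 3 membrane-bound genes (middle) and their difference (right), with the group mean and SD as a black bar. The groups overlap in all 3 panels, and PBS 4 has the lowest difference, 0.64.

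Per kilobase of exon, which allows levels of different genes to be compared, the order was nearly the same in both groups. In PBS it ran Gsto1 (262 ± 73.5 CPM per kb, SD, n = 4), Gsta4 (161.5 ± 74.6), Gstp1 (100.2 ± 5.501), Mgst3 (81.2 ± 14.7), Gstt1 (33.96 ± 20.3), Mgst1 (33.9 ± 5.53), Gstm1 (32.2 ± 3.56), Gstm2 (24.3 ± 2.72), Mgst2 (7.05 ± 1.30) and Gstk1 (2.26 ± 1.55). The 4 highest genes overlapped from one neighbour to the next, as did Gstt1, Mgst1 and Gstm1, while Gstm1 lay above Gstm2 in level with no overlap between their control values. In PDT the order of that last pair was turned, with Gstm2 at 44.4 ± 4.19 and Gstm1 at 38.4 ± 8.16 CPM per kb, and their values overlapped. The figures for Mgst2 depend on its union of annotated exons, 3703 bases, which is longer than that of any other member.

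The make-up of the pool was dominated by the same few genes in every library. Gsto1 held 38.9%, 32.1%, 37.2% and 32.6% of the summed CPM per kb of the 10 genes in the controls and 27.3%, 32.2%, 27.9% and 30.9% in the treated libraries. The share of Gstm2 was 2.94%, 3.14%, 2.74% and 4.91% in PBS and 5.97%, 6.07%, 5.73% and 4.77% in PDT. Gstm2 therefore remained a minor part of the pool, and its share in PBS 4 was above that in PDT 4. The pool as a whole stood at 1217 ± 262 CPM in the controls and 1294 ± 201 CPM after PDT (SD, n = 4), which is a difference smaller than the spread within either group.

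**Figure D4:**
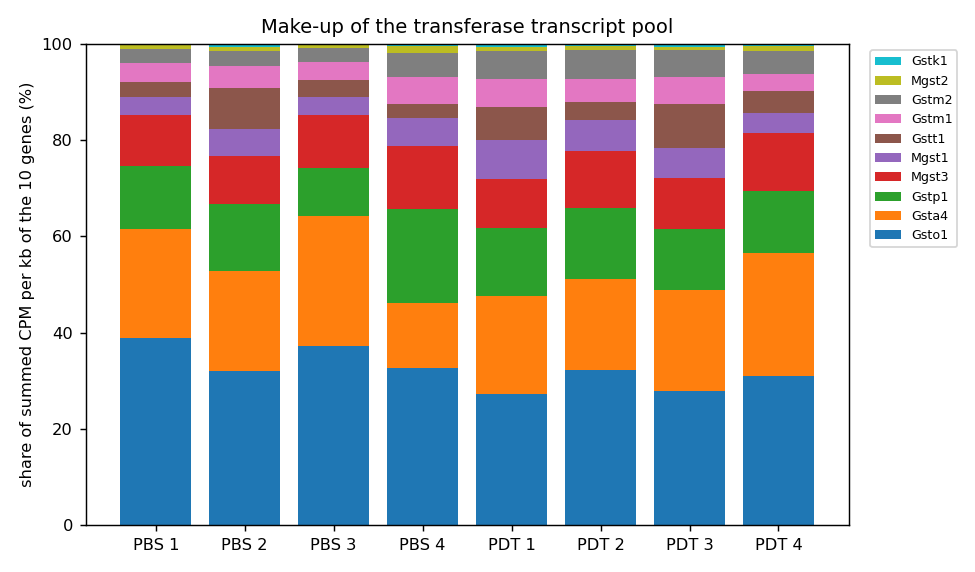
Share of each gene in the summed CPM per kb of exon of the 10 transferases, 1 stacked bar per library, in percent. Gsto1, Gsta4, Gstp1 and Mgst3 fill most of every bar, and the share of Gstm2 is 2.74% to 4.91% in PBS and 4.77% to 6.07% in PDT.

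Genes whose pattern over the 8 libraries was most like that of Gstm2 were sought as a description, by the mean absolute difference of standardised log2 CPM. Among 11332 genes with a mean of at least 5 CPM the nearest were Jdp2, a Jun dimerisation protein, at 0.133, Macrod1, a hydrolase of ADP-ribose marks, at 0.161, and Tnip2, a binding partner of the NF-kappaB inhibitor A20, at 0.162, where the median gene was at 1.10. Jdp2 ranged from 12.9 to 14.6 CPM in the controls and from 20.3 to 28.3 CPM after PDT. Macrod1 ranged from 6.69 to 9.31 and from 15.9 to 17.8 CPM. Among the other transferases Mgst1 was nearest to Gstm2, at 0.494, and Gsto1 the farthest, at 1.31. Of the 11332 genes, 5.965% lay nearer to Gstm2 than Mgst1 did. Gstm2 was chosen for its difference between these groups, so genes with a like difference come out near it. The likeness therefore adds no evidence.

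In the same libraries as the higher Gstm2 and Mgst1, markers of macrophages were higher for all 12 of 12 genes measured, where 49.8% of all tested genes were. Their summed level did not overlap (2120 to 4131 CPM in the controls, 4996 to 6702 CPM after PDT). Lyz2, with means of 1855 CPM in the controls and 3553 CPM after PDT, made up much of that sum. Adgre1, Mrc1, C1qb, C1qc, Cd14 and Fcgr1 each overlapped between the groups. Markers of T and NK cells, 9 of 9 higher, summed to 6.26 to 15.97 CPM in the controls and 20.1 to 28.2 CPM after PDT. Of these, Cd3e, Cd3g, Cd8a, Ncr1 and Nkg7 overlapped between the groups. Counts of this list were low. In PBS 1 to PBS 4 there were 20, 12, 0 and 2 reads of Gzma, 0, 130, 22 and 40 of Gzmb, and 52, 0, 0 and 0 of Ncr1. Gzma had means of 0.222 CPM in the controls and 4.16 CPM after PDT, and Gzmb 1.21 and 3.75 CPM. Skeletal muscle markers were higher for 8 of 8 genes with overlapping sums, and peaked at 3324 CPM in PDT 2, the treated library in which Gstm2 was lowest. Neutrophil markers were higher for 7 of 7 tested genes (67.1 to 173 CPM in the controls, 137 to 483 CPM after PDT), and erythroid markers for 0 of 6 (771 to 4130 CPM in the controls, 559 to 1296 CPM after PDT), both with overlapping sums. Fibroblast sums overlapped, at 7128 to 14740 CPM in the controls and 11670 to 13340 CPM after PDT. Endothelial sums (84.8 to 94.2 against 78.2 to 114.5 CPM) and those of the remaining lists overlapped as well. No list had all its defining markers at 0. The part of any of these cell types in the levels of the transferases, or of the other genes given below, was not tested.

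Other transferases and MAPEG proteins, 20 genes outside the 10, contained none past an adjusted p of 0.05 in edgeR. Of 17 tested, 11 were higher in PDT and the median log2 difference was 0.22, and at an unadjusted p under 0.05 there were 4 higher and 0 lower of 17, where 8.63% and 7.87% of all tested genes were. Alox5ap, the protein that presents arachidonic acid to 5-lipoxygenase, was at 22.01, 18, 12.3 and 16.5 CPM in PBS 1 to PBS 4 and at 47.97, 33.03, 30.7 and 32.3 CPM in PDT 1 to PDT 4. Its log2 difference was 1.06 ± 0.21 (SE), with an edgeR adjusted p of 0.0567, and DESeq2 and limma-voom called it. Of all genes they tested, DESeq2 called 6.36% and limma-voom 1.01%. Alox5ap is also a gene of myeloid cells, whose markers were higher in the same libraries, and their part in its level was not tested. Ptges, a prostaglandin E synthase, differed by 0.67 ± 0.21 (adjusted p = 0.142 by edgeR) and was called by DESeq2, and Hpgds, the sigma-class transferase that makes prostaglandin D, differed by 0.76 ± 0.34 (adjusted p = 0.289).

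Among the other mu-class genes, Gstm5 ranged from 27.6 to 37.5 CPM in the controls and from 33.4 to 43.7 CPM after PDT, and Gstm4 from 7.76 to 10.7 and from 9.78 to 12.2 CPM. Their log2 differences were 0.23 ± 0.15 and 0.22 ± 0.19 (SE). Gstm6 had 12, 0, 0 and 0 reads in PBS 1 to PBS 4 and 46, 12, 38 and 13 reads in PDT 1 to PDT 4, too few for a fold to be given. Gstm7, with 4 to 120 reads per library, had a log2 difference of −0.42 ± 0.80 (SE). Gstm3 had reads in 1 library and was not tested. The alpha-class gene Gsta3 was highest in PBS 3 and PDT 4, at 73.4 and 46.6 CPM, the libraries in which Gsta4 was high. The mu- and alpha-class genes of this paragraph were chosen after their values were seen.

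Genes that supply glutathione or handle its conjugates showed no common direction. Of 27 tested, 15 were higher and 12 lower with a median of 0.04, and 0 passed an adjusted p of 0.05 in edgeR, with 3 higher and 2 lower at an unadjusted p under 0.05, where 8.63% and 7.87% of all tested genes were. DESeq2 called 1 of 27, Anpep, and limma-voom 0, where they called 6.36% and 1.01% of all genes. These counts are near or below those shares. Anpep, an aminopeptidase that acts in glutathione breakdown, was at 20.9, 27.4, 15.5 and 25.9 CPM in PBS 1 to PBS 4 and at 42.03, 34.8, 39.9 and 34.6 CPM in PDT 1 to PDT 4, giving a log2 difference of 0.75 ± 0.18 (SE), with an edgeR adjusted p of 0.0906. Cndp2, the dipeptidase that splits cysteinylglycine, differed by 0.42 ± 0.15 (adjusted p = 0.195 by edgeR), and correcting for GC and length gave 0.25.

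Of the enzymes that make or recycle glutathione and the transporters named here, none passed the test. Gclc, the catalytic subunit of the rate-limiting step, ranged from 78.01 to 157 CPM in the controls and from 68.6 to 101 CPM after PDT, giving a log2 difference of −0.48 ± 0.21 (SE), with an edgeR adjusted p of 0.268. The modifier subunit Gclm differed by −0.19 ± 0.16, Gss, the second enzyme of the path, by 0.07 ± 0.15, the reductase Gsr by 0.10 ± 0.14 and the cystine carrier Slc7a11 by 0.04 ± 0.26. The export pump Abcc1 differed by −0.23 ± 0.15. These genes were singled out after their values were seen, with adjusted p-values of 0.268 to 0.966 by edgeR.

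Enzymes that detoxify carbonyls and epoxides, nearly all without glutathione (Adh5 acts on its formaldehyde adduct), had 9 of 17 tested genes higher and a median of 0.10. In edgeR 0 passed an adjusted p of 0.05, while 4 were higher and 0 lower at an unadjusted p under 0.05, where 8.63% and 7.87% of all tested genes were. DESeq2 called 1 of 17, Ptgr1, which is close to its 6.36% of all genes, and limma-voom 0. Ptgr1, a reductase of unsaturated aldehydes and ketones, was at 32.8, 29.7, 37.5 and 30.5 CPM in PBS 1 to PBS 4 and at 62.8, 38.8, 45.9 and 54.4 CPM in PDT 1 to PDT 4, without overlap, a log2 difference of 0.63 ± 0.16 (SE), with an edgeR adjusted p of 0.0985. The aldehyde reductase Akr7a5 differed by 0.52 ± 0.17 (adjusted p = 0.156), with 0.22 when corrected for GC and length, and the carbonyl reductase Cbr1 by 0.62 ± 0.24 (adjusted p = 0.233).

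Regulators of the family and well-known oxidant-responsive genes gave a median of −0.03, with 4 of 12 tested genes higher and 0 past an adjusted p of 0.05 in edgeR, DESeq2 or limma-voom. At an unadjusted p under 0.05 edgeR had 1 higher and 1 lower of 12, close to the 8.63% and 7.87% of all tested genes. Hmox1, the haem oxygenase, was at 196, 239, 149 and 156 CPM in PBS 1 to PBS 4 and at 597, 111, 411 and 355 CPM in PDT 1 to PDT 4, giving a log2 difference of 0.995 ± 0.377 (SE), with an edgeR adjusted p of 0.213. PDT 2 was below all controls and the other 3 treated libraries above them, and without PDT 2 the difference was 1.31 with an adjusted p of 0.0364. Over all its alternatives the adjusted p of Hmox1 ran from 0.0364 to 0.494. Ahr, the aryl hydrocarbon receptor, differed by −0.42 ± 0.16 (adjusted p = 0.215) and Srxn1, sulfiredoxin, by 0.20 ± 0.14 (adjusted p = 0.532). Corrected for GC and length these were −0.25 and 0.08, and Srxn1 was at 0.32 without PBS 1. Nfe2l2 itself differed by −0.04 ± 0.13, its inhibitor Keap1 by 0.21 ± 0.16, and its targets Nqo1 by −0.59 ± 0.55 and Txnrd1 by −0.01 ± 0.10, with edgeR adjusted p-values of 0.57 to 0.977. Nfe2l2, Keap1, Nqo1 and Txnrd1 were singled out after their values were seen.

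**Figure D5:**
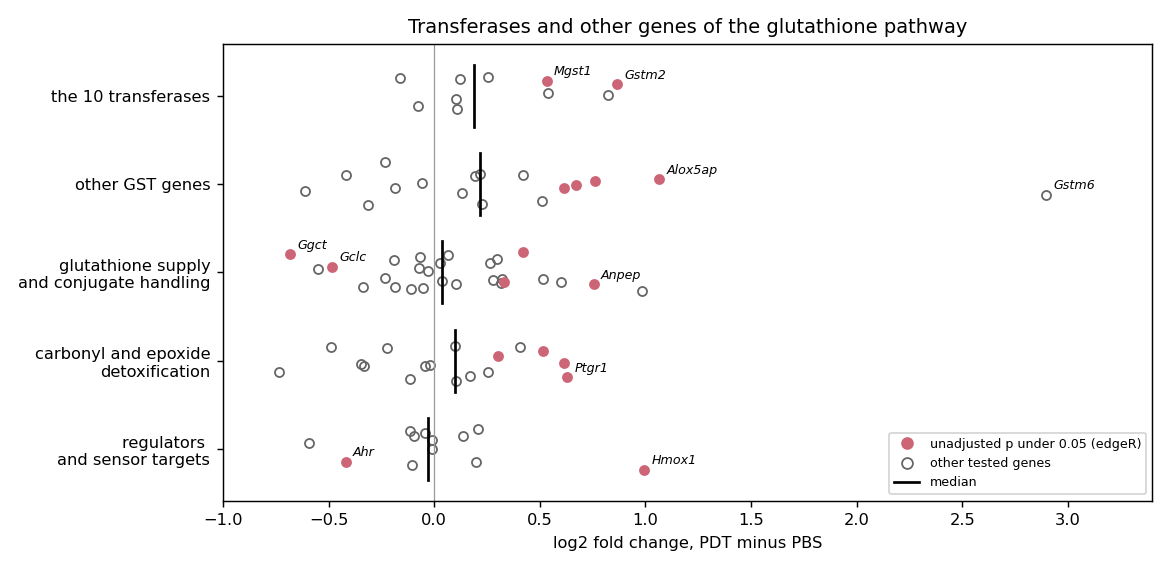
Log2 fold change of PDT minus PBS for the 10 transferases and the tested genes of 4 lists, with genes at an unadjusted edgeR p under 0.05 filled and the median of each group as a black line. For the 10 transferases the fill is a description only. The medians lie between −0.03 and 0.22, and the point of Gstm6 at the far right rests on 12 reads in PBS.

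Sequence just before the gene starts was read because Gstm2 and Mgst1 were the 2 members with no overlap between groups. RefSeq promoters on GRCm38.p6 were found for 9 of the 10 genes, as 11 windows, and 250 bases before each start were searched on both strands for the antioxidant response core TGACNNNGC and the AP-1 site TGACTCA, whose letters overlap at TGAC. The counts were made on another build, so these coordinates place the printed sequences only. The window of Gstm2, chr3:107986421-107986670 on the minus strand, holds neither motif. Mgst1 has 2 windows, and the one further along the plus strand holds neither motif. Its first window, chr6:138140277-138140526 on the plus strand, is printed because it holds 1 match to the antioxidant core on the reverse strand, shown in capitals, which begins at −56 from the start.
Gstm2: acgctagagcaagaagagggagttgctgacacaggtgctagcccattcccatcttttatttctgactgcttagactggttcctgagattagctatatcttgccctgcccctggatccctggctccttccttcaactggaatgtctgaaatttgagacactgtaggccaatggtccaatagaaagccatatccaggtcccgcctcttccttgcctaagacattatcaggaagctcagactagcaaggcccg
Mgst1: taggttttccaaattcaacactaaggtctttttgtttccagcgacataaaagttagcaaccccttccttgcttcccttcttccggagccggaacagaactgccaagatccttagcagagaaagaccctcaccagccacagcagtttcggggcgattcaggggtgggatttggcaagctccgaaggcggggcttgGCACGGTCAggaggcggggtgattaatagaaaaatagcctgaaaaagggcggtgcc
The core was found in 10.2% of the 32851 windows of this length over all genes and the AP-1 site in 4.46%. Among the 11 windows of the members the core was found in 1, of Mgst1, and the AP-1 site in 2, of Mgst2 and Gstp1. A match is a run of letters and not a shown binding site.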

How the data were processed

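Per the labels' protocols, directional libraries were prepared from ribosome-depleted tumour RNA. The authors deposited raw read counts per gene for 8 libraries, and the submitters' processing notes list cutadapt 4.6, STAR 2.7.11b and GRCm39. No counting tool, strand setting or annotation is given in the sources used here. Between 77.9% and 83.8% of counts from 1 to 20 were even, the pattern left when both reads of a pair are counted.

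Counts were fitted in edgeR 4.0.16 (R 4.3.3, limma 3.58.1): filterByExpr (16588 genes), TMM scaling, quasi-likelihood test of PDT minus PBS, Benjamini-Hochberg over all tested genes, threshold 0.05. CPM is the count per 1000000 reads of TMM-scaled library size, and its log2 used a prior count of 2. Standard errors are the log2 fold change over the root of F. The fit was tested on simulated data, where it called 14.9% of 1.5-fold, 50.7% of 2-fold and 81.8% of 4-fold changes. Of its 107 calls there, 9 were false. A gene that was not called may therefore still differ. Exon lengths came from GENCODE M21 by identifier. A count of 0 allows up to 3 reads, at most 0.0872 CPM, for counting error only. This bound takes reads as counted independently, and it is too low if both reads of a pair were counted. Chi-square per degree of freedom was 69.1 to 219 over the 28 pairs of libraries, so none was a copy.

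Alternatives were RLE and upper quartile scaling, other count filters, DESeq2 1.42.0, limma-voom, a replicate block, counts divided by 2, each library left out, and a GC and length correction with splines of 4 degrees of freedom. Members and lists were chosen with earlier results of these data known. Named genes were the 10 members, any list gene past the threshold, the 3 of each list with the smallest p and at least 1 CPM, and the 3 most like Gstm2. One gene that this rule names is not reported here.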

Additional observations from a re-analysis of the deposited data

Results flagged for a closer look

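Of 54 sets of 4 values examined, 3 held a library far from the other 3 of its group by Dixon's criterion, about as many as chance gives at 1 in 20. Mgst3 stood at 113 CPM in PBS 3 against 79.5 to 82.6 CPM in the other controls. Alox5ap in PDT 1, at 47.97 CPM, lay above PDT 2 to PDT 4, at 30.7 to 33.03 CPM. Srxn1 stood at 56.7 CPM in PBS 1 against 40.7 to 43.4 CPM in the other controls.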

How the results depend on the processing

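Leaving out 1 library gave 0 to 1 called members, 0 to 1 regulators, 0 of the other lists, and a difference between cytosolic and membrane-bound genes of 0.03 to 0.19. The GC and length correction, chosen after seeing the data, gave 0 called members. For the other transferases 1 was called with no count filter, 1 with at least 1 CPM in 4 libraries and 1 by limma-voom (Alox5ap), and 2 by DESeq2 (Alox5ap and Ptges). Over all genes tested these fits called, in the same order, 534 of 27316, 88 of 14029, 167 of 16588 and 909 of 14296. With no count filter 1 gene was called in each of the glutathione, carbonyl and regulator lists (Anpep, Ptgr1 and Hmox1), and DESeq2 called 1 in each of the first pair. Replicate numbers gave no clear sign of pairing, as same-numbered deviations correlated at only 0.04 to 0.07 and no library correlated best with its own number. These few correlations cannot settle whether the libraries are paired. The replicate block called 182 genes in all against 39, kept the Gstm2 call at 0.87, and added 1 other transferase (Alox5ap).

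With 1 library left out the log2 difference ran from −0.12 (without PBS 4) to 0.425 for Gsta4, from −0.291 to 0.0202 (without PBS 3) for Gsto1, from −0.357 to 0.0727 (without PDT 2) for Mgst2 and from −0.00565 (without PDT 4) to 0.263 for Mgst3. Other sign changes were Gsta4 at −0.09 without PDT 4 and Mgst2 at 0.0134 without PBS 3 and 0.00635 without PDT 3. After the GC and length correction Gsta4 was at −0.0390, Gstp1 at −0.13 and Mgst3 at −0.0500. The cause was not tested. Called genes numbered 69 with upper quartile scaling, 534 with no filter, 88 with the 1 CPM filter, 67 with counts divided by 2, 909 by DESeq2, 167 by limma-voom, 25 after the correction, and 0 to 122 with 1 library left out. Depth limits Gstm6 and Gstm3, which had no reads in several libraries. Dividing counts by 2 left the standard error of Gstk1 at 0.56 against 0.57, and its value was 0.46 without PBS 3.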

Other observations

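Rows named like transferases but outside the lists were read after the main results. The pseudogene Gstp-ps had 812, 678, 795 and 815 reads in PBS 1 to PBS 4 and 696, 781, 600 and 182 reads in PDT 1 to PDT 4, so PDT 4 had 4.45 CPM and the other 7 libraries 13.4 to 23.7 CPM, while Gstp1 was highest in PDT 4. Gstcd, which carries a transferase-like C-terminal domain, averaged 36.7 ± 4.69 CPM in the controls and 31.5 ± 2.36 CPM after PDT (SD, n = 4). Gstt3, the theta-class neighbour of Gstt1, was at 21.8, 51.7, 34.5 and 23.9 CPM in PBS 1 to PBS 4 and at 34.8, 15.3, 36.6 and 25.7 CPM in PDT 1 to PDT 4. Its highest library in each group was the same as for Gstt1, PBS 2 and PDT 3, and PDT 2 was low for both.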
